A study of Mus musculus with 30 samples.

Results

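Female germ cells that lack Rnf2 at embryonic day E12.5 were set against control female germ cells sampled a day later, at E13.5. The comparison uses 6 of the 30 arrays of the series, chosen by their labels alone: 3 of E12.5 XX germ cells of genotype Ring1+;Rnf2delta (called E12.5 mutants here) and 3 of E13.5 XX germ cells of genotype Ring1+;Rnf2+ (E13.5 controls). A further 3 arrays of E12.5 XX germ cells of genotype Ring1+;Rnf2+ (E12.5 controls) are given beside them as the starting level. All 3 groups carry Ring1, the paralogue of Rnf2, and an Oct4(deltaPE)-GFP transgene, a reporter of germ cells, on a mixed background of 129/Sv and C57BL6J. Gonads were made into single cells with trypsin, GFP-positive cells were sorted, and RNA of 500 cells per sample was amplified and hybridised to Affymetrix arrays. The labels name neither the driver of the Rnf2 deletion nor the share of cells that had lost the gene. They also leave unsaid whether arrays of one group stem from different embryos, and the spread behind every p-value may thus be technical. The question was which parts of the E13.5 meiotic and oogenic state the E12.5 mutants held a day early, and which they did not. Genotype and stage change together in this comparison, and their parts in any difference cannot be told apart.

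Rnf2 and Ring1 encode the catalytic ubiquitin ligases of the Polycomb complex PRC1, which marks histone H2A and keeps developmental genes silent. In the mouse ovary, germ cells stop dividing and enter meiotic prophase in response to signals that include retinoic acid and bone morphogenetic proteins (BMP). Entry needs Stra8, and Meioc keeps germ cells in prophase once they have entered it. Meiotic cohesins then hold sister chromatids, the synaptonemal complex pairs the homologues, and a recombination machinery makes and repairs DNA breaks, while pluripotency genes are shut off and the inactive X is reactivated.

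Values are the authors' deposited log2 signals, so that a difference of 1 is 2-fold, and each test is a limma moderated test adjusted over 15180 genes by the Benjamini-Hochberg method, with a call at an adjusted p under 0.05. The E12.5 XX arrays varied more than the others. The median within-group SD was 0.207 in E12.5 mutants, 0.149 in E13.5 controls and 0.238 in E12.5 controls, and the fit gave these groups variance weights of 0.595, 1.22 and 0.444. The mean correlation of an array with its own group, across genes, was 0.974 to 0.978 in E12.5 mutants, 0.988 to 0.989 in E13.5 controls and 0.964 to 0.970 in E12.5 controls. One array stood apart in the genes this comparison is about: mutant replicate 1 was the highest of the 3 mutant arrays for 43 of 49 meiotic genes, with a mean log2 signal over them of 5.25, against 4.56 and 4.44 in mutant replicates 2 and 3. E13.5 control replicate 2 was the highest of its group for 33 of the 49, with means of 4.50, 4.97 and 4.69 in E13.5 control replicates 1, 2 and 3. Values without one of these arrays are given beside the meiotic genes that they move most.

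Rnf2 itself read 4.47, 5.0 and 4.68 in E12.5 mutants, against 5.47, 5.65 and 5.38 in E13.5 controls. All mutant arrays lay below all E13.5 control arrays, and Rnf2 was lower by 0.78 ± 0.21 (SE, limma adjusted p = 0.019). The call was lost without mutant replicate 1 (adjusted p = 0.093), mutant replicate 3 (0.067) or E13.5 control replicate 2 (0.064). Where its 1 probe set sits relative to the deletion was not known, so the level is no check of the genotype. Ring1 was near the lower end of the array in both groups, at 2.78 to 3.12 in E12.5 mutants and 2.99 to 3.12 in E13.5 controls, and its difference was -0.07 with a 95% confidence interval of -0.39 to 0.25.

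Of all genes tested, 389 (2.56%) were called higher in E12.5 mutants than in E13.5 controls and 606 (3.99%) lower, 995 (6.55%) in all. Rises and falls named below are differences of E12.5 mutants from E13.5 controls, not changes over time. The count was 400 without mutant replicate 2, 538 without mutant replicate 3 and 657 without E13.5 control replicate 2. The median difference of all genes was -0.0445. Because a p that misses the threshold does not show likeness, a second bound was used: a gene was counted as within 2-fold where the whole 95% interval of its difference lay between -1 and 1. This held for 13906 genes (91.6%), and it is a loose bound for genes of low signal, where arrays compress differences. The step between the E13.5 and E12.5 controls, for comparison, raised 1735 genes (11.4%) and lowered 387 (2.55%). On the same day, 205 genes (1.35%) were higher and 30 (0.198%) lower in E12.5 mutants than in E12.5 controls. These 3 comparisons share arrays, so their values are set side by side gene by gene and no overlap between them is counted.

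The median difference of meiotic genes between E12.5 mutants and E13.5 controls was near that of all genes, while a larger share of them was called. Of 58 genes in 4 lists (entry regulators, cohesins, synaptonemal complex and chromosome axis, recombination), 51 were on the array under a single symbol and 49 passed the filter on low signals. Between E12.5 mutants and E13.5 controls, 4 of the 49 were called higher and 3 lower, 14.3% in all, beside 6.55% of all genes. A further 33 were not called and lay within 2-fold, and 9 were neither called nor bounded. With 1 called gene included, 69.4% lay within 2-fold, beside 91.6% of all genes. Their median difference was 0.00, beside -0.04 over all genes. The same 49 genes had a median of 0.54 between E13.5 and E12.5 controls, with 17 called higher and 0 lower, against 11.4% of all genes called higher. On the same day, E12.5 mutants against E12.5 controls gave a median of 0.60, with 9 called higher and 0 lower, against 1.35% of all genes called higher. Without mutant replicate 1, the meiotic genes called lower numbered 5 and those called higher 1. Over the 49 tested genes the 3 mutant and 3 control arrays did not overlap for 9, beside 25% of all genes. The 2 meiotic genes that the filter removed, the cohesin gene Rad21l and the recombination gene Meiob, were not tested. They read 1.87 to 3.97 and 1.43 to 3.54 in E12.5 mutants, against at most 2.2 in E13.5 controls. For both genes the lowest mutant array lay below the highest E13.5 array.

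**Figure D1:**
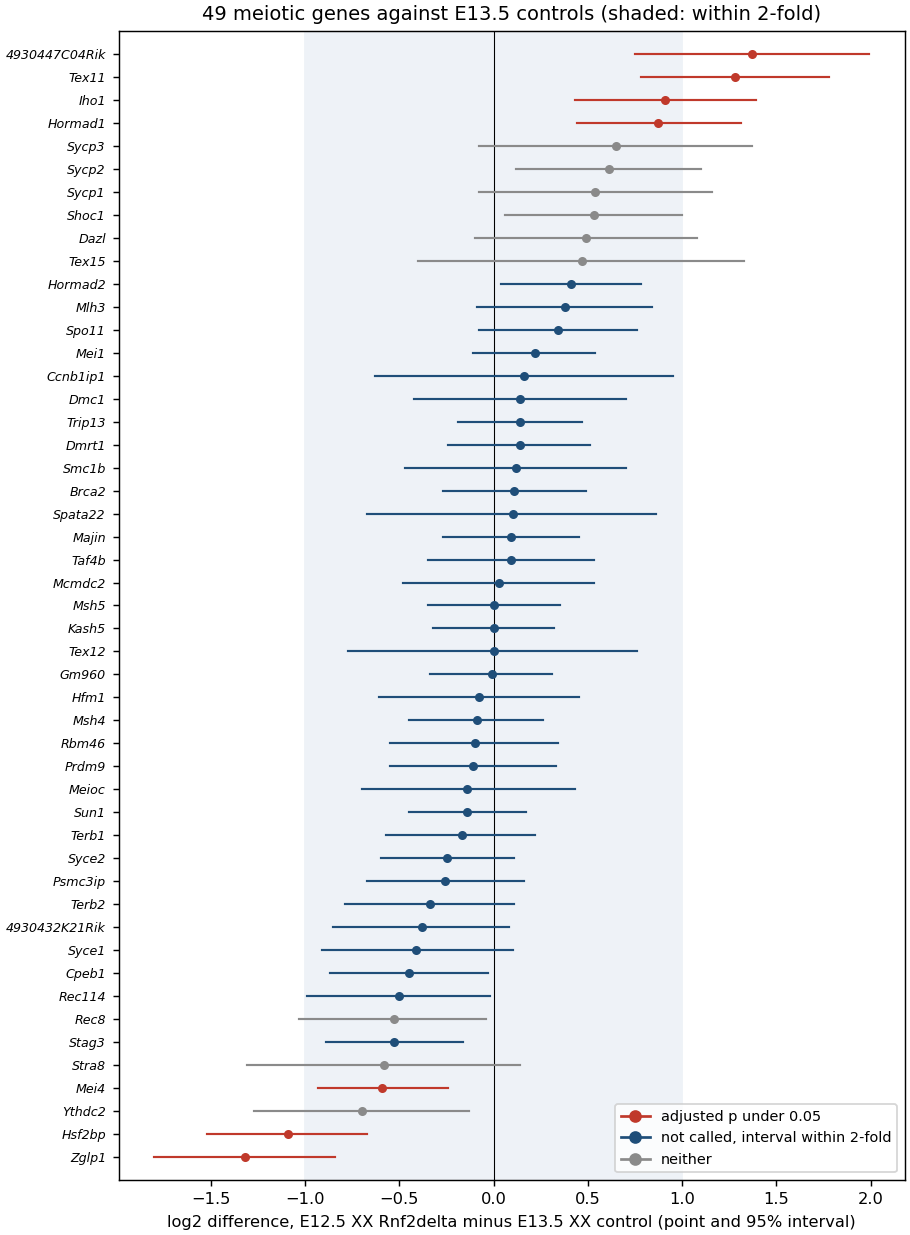
Differences of the 49 meiotic genes tested, E12.5 XX Rnf2delta minus E13.5 XX control, as points on the log2 scale (horizontal axis) with 95% intervals; the shaded band is the 2-fold bound. 4930447C04Rik, Tex11, Iho1 and Hormad1 lie at the high end and Zglp1, Hsf2bp and Mei4 are the called genes at the low end, with most other intervals inside the band.

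Stra8, induced by retinoic acid and required to enter meiosis, was high in both groups. It read 6.50, 5.66 and 4.60 in E12.5 mutants and 5.69, 7.21 and 5.62 in E13.5 controls, with 3.61, 2.71 and 2.07 in E12.5 controls. The mutant and E13.5 ranges overlapped, and every array of both lay above every E12.5 control array. Its difference from the E13.5 controls was -0.58 ± 0.36 (SE; limma adjusted p = 0.38), with an interval of -1.31 to 0.14 that reaches beyond 2-fold on the low side. Left without mutant replicate 1 the difference was -1.04 (adjusted p = 0.098), and without E13.5 control replicate 2 it was -0.07. The E13.5 controls exceeded the E12.5 controls by 3.38 ± 0.39 (adjusted p = 2.0e-06), and the mutants exceeded them by 2.79 ± 0.45 (adjusted p = 6.9e-04).

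Meioc, which keeps germ cells in prophase once they have entered it, was within 2-fold of its E13.5 level. It read 6.10, 4.43 and 4.83 in E12.5 mutants and 4.95, 5.67 and 5.16 in E13.5 controls, against 2.52, 2.21 and 2.33 in E12.5 controls. The difference was -0.14, with an interval of -0.70 to 0.43, and was -0.63 (adjusted p = 0.16) without mutant replicate 1. Its partner Ythdc2, an RNA helicase that binds methylated RNA, read 5.37, 4.43 and 4.54 in E12.5 mutants and 5.13, 5.72 and 5.59 in E13.5 controls. That difference of -0.70 did not pass (adjusted p = 0.13), and it was called without mutant replicate 1 (-1.0, adjusted p = 0.044). Dazl, a germ cell RNA-binding protein that licenses cells for meiosis, read 9.43, 9.28 and 9.03 in E12.5 mutants and 8.76, 8.78 and 8.72 in E13.5 controls (0.49, adjusted p = 0.36).

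Zglp1 was the entry regulator called below its E13.5 level in E12.5 mutants. It encodes a GATA-like factor that acts in the BMP-driven oogenic programme. It read 5.15, 5.08 and 4.22 in E12.5 mutants, against 5.97, 6.06 and 6.39 in E13.5 controls, and 5.56, 5.84 and 5.12 in E12.5 controls. All mutant arrays lay below all E13.5 arrays, and Zglp1 was lower by 1.32 ± 0.24 (SE, limma adjusted p = 9.7e-04). The differences were -1.49 to -1.02 over the fits that left out 1 of the 6 arrays. The mutants were not above their own-day controls either, with a difference of -0.69 (adjusted p = 0.29). Of the 9 entry regulators tested, Zglp1 was the 1 called (11.1%, beside 6.55% of all genes). Within 2-fold lay 5 (55.6%, beside 91.6% of all genes), and Stra8, Ythdc2 and Dazl were neither. At an unadjusted p under 0.05 in limma, 3 were lower and 0 higher. Cpeb1 read 5.98 to 6.79 in E12.5 mutants and 6.59 to 6.88 in E13.5 controls (-0.45, adjusted p = 0.21). It was called lower without mutant replicate 1 (-0.71, adjusted p = 0.050 after rounding).

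**Figure D2:**
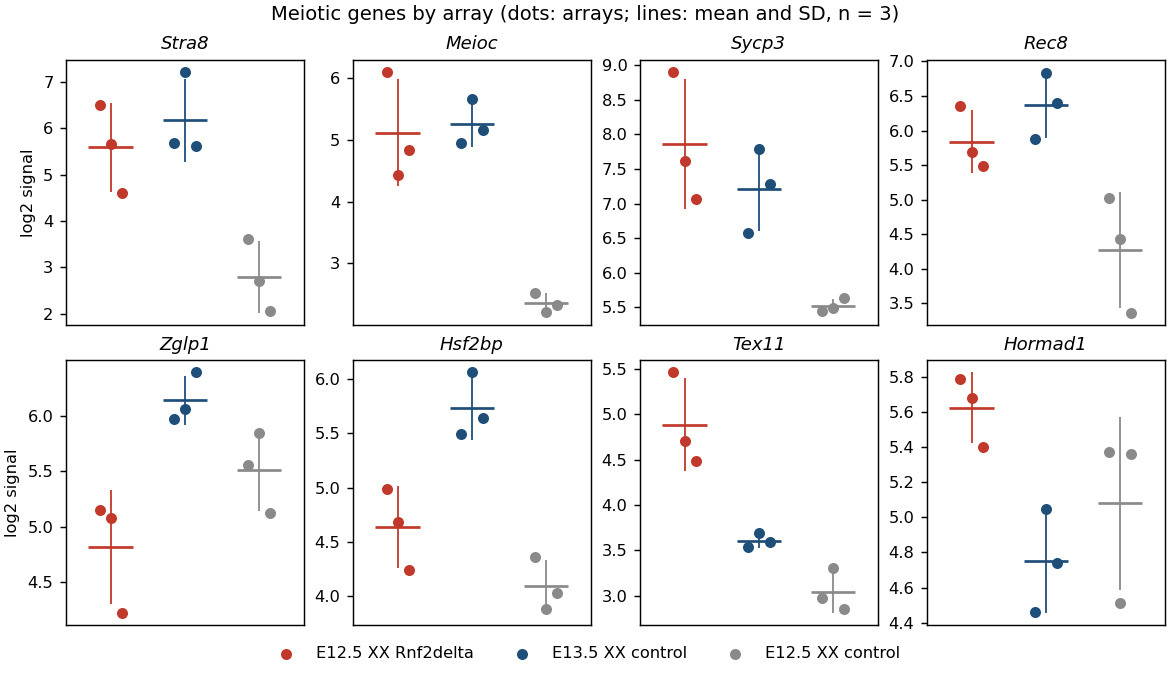
Log2 signal of 8 meiotic genes on each array, with E12.5 XX Rnf2delta left, E13.5 XX control next and E12.5 XX control right; horizontal lines are means and vertical lines SD (n = 3). Stra8, Meioc, Sycp3 and Rec8 overlap between mutants and E13.5 controls, Zglp1 and Hsf2bp are lower on all mutant arrays, and Tex11 and Hormad1 are higher on all of them.

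Of the 3 meiotic cohesin subunits tested 0 were called in limma, with 2 at an unadjusted p under 0.05. These were Rec8 and Stag3, both lower in E12.5 mutants. Rec8, the meiotic kleisin, read 6.35, 5.69 and 5.48 in E12.5 mutants, 5.88, 6.83 and 6.40 in E13.5 controls and 5.02, 4.43 and 3.36 in E12.5 controls. Its difference from E13.5 was -0.53 (interval -1.03 to -0.04, limma adjusted p = 0.21), -0.79 (adjusted p = 0.072) without mutant replicate 1 and -0.30 without E13.5 control replicate 2. E12.5 mutants were above E12.5 controls by 1.57 (adjusted p = 0.0057). Smc1b, the meiotic SMC subunit, read 8.44, 7.67 and 7.34 in E12.5 mutants and 7.40, 8.12 and 7.59 in E13.5 controls, and lay within 2-fold (0.12, interval -0.47 to 0.70), with a change of sign to -0.20 without mutant replicate 1.

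Stag3, the STAG subunit of meiotic cohesin, read 7.83, 7.66 and 6.99 in E12.5 mutants and 8.01, 8.05 and 7.99 in E13.5 controls, so that no mutant array reached the lowest E13.5 array. E12.5 controls read 7.63, 7.64 and 7.11, close to the mutants (0.04, adjusted p = 0.98). The difference from E13.5 was -0.53 (interval -0.89 to -0.16, adjusted p = 0.075), which was called without mutant replicate 1 (-0.69, adjusted p = 0.034).

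Of 15 synaptonemal complex and axis genes tested, 2 were called higher and 0 lower, 10 were within 2-fold, and Sycp1, Sycp2 and Sycp3 were neither. The share called was 13.3%, beside 6.55% of all genes, and the share within 2-fold 66.7%, beside 91.6%. Sycp3, a lateral element protein, read 8.90, 7.62 and 7.07 in E12.5 mutants and 6.58, 7.79 and 7.28 in E13.5 controls, against 5.44, 5.49 and 5.63 in E12.5 controls. Its difference was 0.65 (interval -0.08 to 1.37, limma adjusted p = 0.31), and 0.13 without mutant replicate 1. Sycp1, the transverse filament protein, read 6.50, 5.64 and 4.88 in E12.5 mutants, 5.11, 5.36 and 4.93 in E13.5 controls and 3.58, 3.71 and 3.32 in E12.5 controls. The difference was 0.54 (interval -0.08 to 1.16, adjusted p = 0.32), and again 0.13 without mutant replicate 1. Both genes therefore overlapped their E13.5 ranges and cleared the E12.5 control range on all mutant arrays.

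Hormad1, an axis protein that promotes breaks and monitors synapsis, read 5.79, 5.68 and 5.40 in E12.5 mutants, against 4.46, 5.05 and 4.74 in E13.5 controls. It was higher on all mutant arrays by 0.87 ± 0.21 (SE; limma adjusted p = 0.012), although E12.5 controls, at 5.37, 4.51 and 5.36, spanned the gap. The call was lost without mutant replicate 1 (adjusted p = 0.051), mutant replicate 2 (0.087) or E13.5 control replicate 1 (0.055). 4930447C04Rik, the symbol under which Six6os1 of the central element is listed, read 7.46, 6.24 and 5.30 in E12.5 mutants and 4.34, 5.32 and 5.22 in E13.5 controls. It was called higher by 1.37 (adjusted p = 0.0059), although mutant replicate 3 fell inside the E13.5 range, and without mutant replicate 1 the difference was 0.81 (adjusted p = 0.089). Tex12, another central element protein, averaged 4.62 in both groups (interval of the difference -0.77 to 0.76).

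Of 22 recombination genes tested, 2 were called higher and 2 lower, and 16 of the others lay within 2-fold. That is 18.2% called, beside 6.55% of all genes, though the calls of Iho1 and Mei4 were lost when single arrays were left out. Hsf2bp, which brings BRCA2 to meiotic breaks, read 4.99, 4.68 and 4.24 in E12.5 mutants, against 5.49, 6.06 and 5.64 in E13.5 controls and 4.36, 3.88 and 4.03 in E12.5 controls. It was 1.09 ± 0.21 below E13.5 controls (SE, limma adjusted p = 0.0015), with differences of -1.27 to -0.90 when any 1 of the 6 arrays was left out. The E13.5 controls were above E12.5 controls by 1.64 (adjusted p = 1.9e-05), and the difference of the mutants from them was 0.54 (adjusted p = 0.36). Mei4, a partner of the break-forming enzyme, was called lower by 0.59 at signals of 1.93 to 2.12 in E12.5 mutants and 2.42 to 2.72 in E13.5 controls, near the bottom of the array. Its call (adjusted p = 0.033) was lost without any 1 of 5 arrays, at adjusted p values up to 0.17.

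Tex11, an X-linked gene that promotes crossovers, went beyond its E13.5 level. It read 5.46, 4.71 and 4.49 in E12.5 mutants, against 3.54, 3.69 and 3.59 in E13.5 controls, and 2.98, 3.31 and 2.85 in E12.5 controls. All mutant arrays exceeded all arrays of both control groups, and the difference from E13.5 was 1.28 ± 0.25 (SE; limma adjusted p = 0.0019), still called without mutant replicate 1 (0.99, adjusted p = 0.022). Iho1, an axis-bound partner of the break machinery, was called higher by 0.91 (adjusted p = 0.016) on readings of 4.29, 2.85 and 2.40 in E12.5 mutants and 2.27, 2.20 and 2.35 in E13.5 controls. That call rested on mutant replicate 1, without which the difference was 0.35 (adjusted p = 0.26). Dmc1, the meiotic recombinase, read 5.73, 4.71 and 4.82 in E12.5 mutants and 4.59, 5.46 and 4.80 in E13.5 controls, within 2-fold (0.14, interval -0.42 to 0.70, and -0.18 without mutant replicate 1), and Spo11, which makes the breaks, averaged 3.59 and 3.25 in the same order of groups (0.34, adjusted p = 0.38).

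Zona pellucida genes, of the later oocyte, read below the array medians of 2.52 to 2.66 in both groups. Some earlier genes on the same list were well above these medians. Of 20 genes listed for oocyte differentiation, 18 were on the array and 11 passed the filter. All 11 lay within 2-fold, beside 91.6% of all genes. In limma 0 were called (2 at an unadjusted p under 0.05), beside 6.55% of all genes. Some of the 11 read near or below the array medians, where arrays compress differences and the bound says least. Lhx8 read 2.36 to 2.74 in E12.5 mutants and 2.42 to 2.83 in E13.5 controls, and Nlrp5 1.55 to 2.44 and 1.67 to 2.16. The 7 that the filter removed, among them Nobox, Zp2 and Bmp15, read at most 2.33 on mutant arrays and at most 2.63 on E13.5 arrays. Figla, the factor that activates zona pellucida genes, read 3.85, 3.51 and 2.63 in E12.5 mutants and 3.37, 3.62 and 2.94 in E13.5 controls, with 2.77, 2.75 and 2.14 in E12.5 controls. Its difference from E13.5 was 0.02 (interval -0.52 to 0.56), and -0.24 without mutant replicate 1. Kit, the receptor for stem cell factor, read 7.22 to 7.69 in E12.5 mutants and 7.22 to 7.33 in E13.5 controls, Sohlh2 6.38 to 6.69 and 5.89 to 6.26, and Ybx2, an RNA-binding protein of germ cells, 4.85 to 5.43 and 5.36 to 5.55, in the same order of groups. Sohlh1 and Sohlh2, partner factors of early oocyte growth, were higher on all mutant arrays than on all E13.5 arrays, by 0.52 (limma adjusted p = 0.075) and 0.46 (adjusted p = 0.17), and neither passed. In the step between E13.5 and E12.5 controls, 0 of the 11 were called, beside 11.4% of all genes called higher and 2.55% lower.

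Genes of both signals that drive the oogenic fate were called at about the rate of all genes. Of 13 BMP response genes tested, 1 was called higher and 0 lower (7.69%, beside 6.55% of all genes), and 11 were within 2-fold (84.6%, beside 91.6%). The 1 called was Id2, an inhibitor of basic helix-loop-helix factors, which read 4.98, 5.59 and 4.21 in E12.5 mutants and 4.05, 3.57 and 3.67 in E13.5 controls (1.17 ± 0.34, limma adjusted p = 0.037). That call was lost without mutant replicate 1 (adjusted p = 0.088), mutant replicate 2 (0.31), E13.5 control replicate 2 (0.10) or E13.5 control replicate 3 (0.085). Gata2, a BMP target in germ cells, read 5.37, 4.98 and 5.28 in E12.5 mutants and 5.11, 5.16 and 5.41 in E13.5 controls, within 2-fold (-0.02, interval -0.41 to 0.38).

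In the retinoic acid pathway 16 genes were tested, 0 were called higher, 1 lower (6.25%) and 13 were within 2-fold (81.2%, beside 91.6% of all genes). The arrays of the groups did not overlap for 37.5% of them, beside 25% of all genes. Rdh10, which makes the retinal from which retinoic acid is formed, read 4.34, 4.34 and 4.64 in E12.5 mutants, against 5.19, 5.22 and 5.07 in E13.5 controls and 3.72, 3.95 and 4.11 in E12.5 controls. It was 0.72 ± 0.17 below E13.5 controls (SE, limma adjusted p = 0.0088), a call lost without mutant replicate 2 (adjusted p = 0.085). Crabp2, which carries retinoic acid to its nuclear receptors, read 7.30, 6.83 and 6.86 in E12.5 mutants, 6.37, 6.45 and 5.98 in E13.5 controls and 4.38, 4.04 and 4.0 in E12.5 controls. Every mutant array was above every E13.5 array, but the difference of 0.73 did not pass (interval 0.07 to 1.38, adjusted p = 0.19). Against E12.5 controls, Crabp2 was 2.85 ± 0.40 higher in E12.5 mutants (adjusted p = 1.5e-04) and 2.13 ± 0.35 higher in E13.5 controls (adjusted p = 1.5e-04).

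Germline licensing and genome defence genes, which include the piRNA machinery and other genes whose promoters are methylated in somatic cells, were called more often than genes in general, in both directions. Promoters of 4 of them are shown because one, Tex101, was called above its E13.5 level while the other three lay within 2-fold of it; Slc25a31 and Mov10l1 were chosen after their values were seen. Each is the 250 bases before the start of the gene in RefSeq annotation of GRCm38.p6, 5′ to 3′ on the gene's strand; capitals mark CACGTG, the E-box bound by MGA and MAX of a variant PRC1, and TCCCGC or GCGGGA, the E2F6 motif. Tex101 lies at chr7:24672051-24672300 (minus strand), Mael at chr1:166238745-166238994 (minus strand), Slc25a31 at chr3:40708621-40708870 (plus strand) and Mov10l1 at chr15:88982744-88982993 (plus strand).
Tex101: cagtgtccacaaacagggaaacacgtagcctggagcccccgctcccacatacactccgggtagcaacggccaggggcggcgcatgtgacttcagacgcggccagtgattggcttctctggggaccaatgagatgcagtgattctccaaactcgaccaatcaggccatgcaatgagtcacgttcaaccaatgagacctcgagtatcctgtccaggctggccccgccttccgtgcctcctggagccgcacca
Mael: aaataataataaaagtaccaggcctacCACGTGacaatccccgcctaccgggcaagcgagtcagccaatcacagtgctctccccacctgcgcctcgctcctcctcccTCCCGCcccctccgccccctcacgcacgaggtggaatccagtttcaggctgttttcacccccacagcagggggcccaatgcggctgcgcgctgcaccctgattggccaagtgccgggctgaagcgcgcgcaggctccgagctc
Slc25a31: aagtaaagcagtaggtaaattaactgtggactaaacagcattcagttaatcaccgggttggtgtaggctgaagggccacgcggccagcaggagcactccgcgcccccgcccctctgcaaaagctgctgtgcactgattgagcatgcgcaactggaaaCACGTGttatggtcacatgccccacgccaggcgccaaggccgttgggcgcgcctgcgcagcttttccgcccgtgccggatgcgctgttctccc
Mov10l1: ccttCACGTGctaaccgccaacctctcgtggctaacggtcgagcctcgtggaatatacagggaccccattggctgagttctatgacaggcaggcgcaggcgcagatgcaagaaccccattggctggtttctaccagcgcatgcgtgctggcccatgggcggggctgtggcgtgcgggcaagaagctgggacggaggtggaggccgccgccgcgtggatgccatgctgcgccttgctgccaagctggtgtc

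Neither motif stands in the Tex101 stretch, and CACGTG stands once in each of the other three. Over the longer window of RefSeq promoters (250 bases before and 50 after the start, both strands), CACGTG was present in 11 of 21 licensing promoters (52.4%) and in 9.72% of 11586 promoters of protein-coding genes tested. TCCCGC was present in 33.3% of both. The contrast between Tex101 and the other promoters shown did not hold over the licensing list. CACGTG was also absent from the promoters of Tdrd5, Asz1, Gtsf1, Gpat2, Tex19.1, Pld6 and Henmt1, which were not called against E13.5. Tdrd12, called higher, and Tdrd7, called lower, lacked it as well, while Ddx25, called lower, had it. CACGTG and TCCCGC do not overlap as letters, and 19% of licensing promoters held both, against 3.61% of all. Among promoters of genes called higher in E12.5 mutants CACGTG was present in 11.7%, and among those called lower in 7.88%. The count for the meiotic lists is void, because fewer than 80% of their tested genes had a promoter in the table. A match of letters is a description and not a binding site.

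Of 24 licensing genes tested, 2 were called higher and 2 lower (16.7%, beside 6.55% of all genes) and 17 lay within 2-fold (70.8%, beside 91.6%), and their median difference was 0.09. Between E13.5 and E12.5 controls 8 were called higher (33.3%, beside 11.4% of all genes), and between E12.5 mutants and E12.5 controls 7 were (29.2%, beside 1.35%). Tex101, a germ cell surface protein, read 6.96, 5.54 and 5.52 in E12.5 mutants, against 4.25, 4.82 and 3.71 in E13.5 controls and 3.05, 3.12 and 2.97 in E12.5 controls. The 3 groups did not overlap. Tex101 was 1.75 ± 0.32 above E13.5 (SE; limma adjusted p = 0.0012), with differences of 1.27 to 2.03 when any 1 array was left out. Tdrd12, a Tudor protein of the piRNA pathway, was called higher by 0.74 (adjusted p = 0.033), a call lost without mutant replicate 2 (0.26) or 3 (0.14) or E13.5 control replicate 1 (0.11) or 2 (0.064).

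Mael, a piRNA pathway protein with an HMG box, read 7.10, 7.10 and 6.59 in E12.5 mutants and 6.55, 6.66 and 6.72 in E13.5 controls, against 5.59, 5.12 and 5.08 in E12.5 controls. It lay within 2-fold of E13.5 (0.29, interval -0.32 to 0.90). Slc25a31, the germline ADP/ATP carrier, read 8.97, 8.60 and 8.36 in E12.5 mutants and 8.36, 8.76 and 8.26 in E13.5 controls (0.19, interval -0.40 to 0.77). Mov10l1, the helicase that loads piRNA precursors, read 6.62, 6.48 and 6.03 in E12.5 mutants and 5.97, 6.43 and 6.09 in E13.5 controls (0.21, interval -0.32 to 0.73). All of these were above their E12.5 control levels on every mutant array.

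The licensing genes called lower were Tdrd7 and Ddx25. Tdrd7, a Tudor protein of germ granules, read 5.55, 4.35 and 4.67 in E12.5 mutants, against 5.63, 5.84 and 5.6 in E13.5 controls and 3.30, 3.81 and 3.31 in E12.5 controls. It stood between the control stages, with a difference of -0.83 ± 0.21 from E13.5 (limma adjusted p = 0.016), and was 1.38 ± 0.27 above E12.5 controls (adjusted p = 0.0057). Its call against E13.5 was lost without mutant replicate 2 (adjusted p = 0.23) or 3 (0.095) or E13.5 control replicate 2 (0.058). Ddx25, a germ cell RNA helicase, read 4.51, 3.94 and 4.40 in E12.5 mutants and 4.72, 5.31 and 5.11 in E13.5 controls (-0.77, adjusted p = 0.040), and its call was lost without mutant replicate 2 (0.29) or 3 (0.077) or E13.5 control replicate 2 (0.14) or 3 (0.091).

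Of the pluripotency genes, 3 were called above their E13.5 level in E12.5 mutants, but each of these calls was lost without some single array. Of 23 tested, 3 were called higher in E12.5 mutants than in E13.5 controls, beside 2.56% of all genes, and 0 lower, beside 3.99%. Within 2-fold lay 19 (82.6%, beside 91.6% of all genes), and the median difference was 0.21. Between E13.5 and E12.5 controls 7 of the 23 were called lower, beside 2.55% of all genes. Nanog read 7.03, 7.79 and 7.54 in E12.5 mutants, against 6.56, 6.25 and 6.82 in E13.5 controls and 7.51, 8.21 and 8.40 in E12.5 controls. Its difference from E13.5 was 0.91 ± 0.21 (SE; limma adjusted p = 0.0080), lost without mutant replicate 2 (adjusted p = 0.12), and its difference from E12.5 controls was -0.58 (adjusted p = 0.33). Utf1, a chromatin factor of pluripotent cells, read 5.83, 6.33 and 6.48 in E12.5 mutants, against 5.38, 5.15 and 5.70 in E13.5 controls and 6.64, 6.95 and 6.97 in E12.5 controls. It was 0.80 above E13.5 (adjusted p = 0.0091), lost without mutant replicate 2 (0.086) or 3 (0.076), and all its mutant arrays lay below all E12.5 control arrays.

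Tcl1, an activator of AKT, was 0.67 higher (adjusted p = 0.044), a call lost without any 1 of 5 arrays, at adjusted p values up to 0.19. Pou5f1 read 8.45, 8.79 and 8.86 in E12.5 mutants and 9.0, 8.72 and 9.06 in E13.5 controls, within 2-fold (-0.23, interval -0.59 to 0.13). Sox2, the partner of Pou5f1, read 5.77, 5.65 and 5.76 in E12.5 mutants and 5.55, 5.64 and 5.54 in E13.5 controls, and 6.52, 6.26 and 6.41 in E12.5 controls. It lay within 2-fold of E13.5 (0.15, interval -0.24 to 0.54) and its mutant arrays were below all E12.5 control arrays. Lncenc1, a long noncoding RNA of naive embryonic stem cells, had the second largest rise among genes named for their size of change. It read 5.53, 7.52 and 6.96 in E12.5 mutants, against 3.57, 3.54 and 3.99 in E13.5 controls and 5.21, 5.73 and 6.56 in E12.5 controls (2.97 ± 0.34, adjusted p = 5.1e-06).

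Of 16 early germ cell genes tested, Lin28a was called lower (-0.58, limma adjusted p = 0.030) and 0 were called higher (6.25% called, beside 6.55% of all genes). Within 2-fold lay 12, Lin28a among them (75%, beside 91.6% of all genes). The Lin28a call was lost without any 1 of 5 arrays, at adjusted p values up to 0.12. Dppa3, a maternal factor that protects DNA methylation, read 8.19, 8.62 and 8.64 in E12.5 mutants and 8.40, 8.23 and 8.51 in E13.5 controls, within 2-fold (0.10, interval -0.23 to 0.43). Of 8 spermatogenic genes tested, 0 were called in limma (1 at an unadjusted p under 0.05), beside 6.55% of all genes. Within 2-fold lay 6 (75%, beside 91.6%), and the arrays did not overlap for 50%, beside 25% of all genes. Bnc2 read 3.17 to 3.64 in E12.5 mutants and 3.75 to 4.42 in E13.5 controls (-0.66, adjusted p = 0.24). Lefty1 differed by -0.58 (adjusted p = 0.46) and Nodal by 0.22 (adjusted p = 0.60). Nanos2, the male fate determinant, read 2.07 to 2.35 in E12.5 mutants and 2.14 to 2.35 in E13.5 controls.

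**Figure D3:**
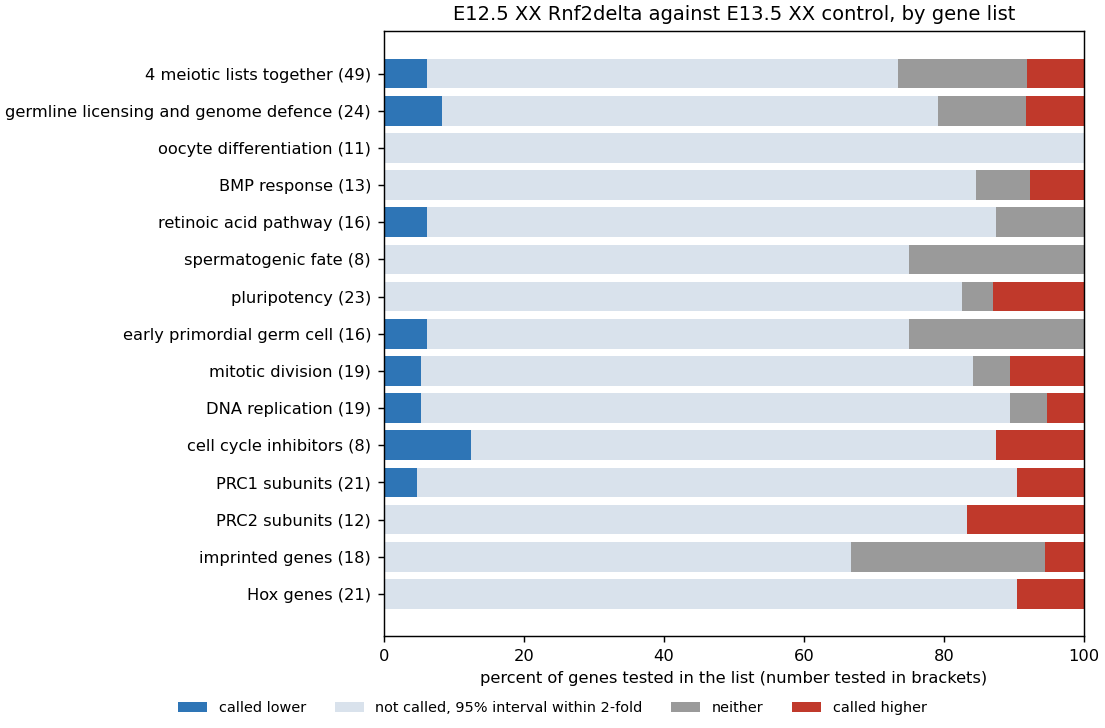
Share of the tested genes of each list (percent, horizontal axis; number tested in brackets) called lower, within 2-fold and not called, neither, or called higher in E12.5 XX Rnf2delta against E13.5 XX control. All 11 oocyte differentiation genes are within 2-fold, beside 91.6% of all genes. Cell cycle inhibitors, with 8 genes, have the widest lower share among the lists drawn, which is 1 gene.

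Cell cycle genes differed in both directions, the inhibitors Cdkn1b and Cdkn2d among them. Cdkn1b (p27), an inhibitor of cyclin-dependent kinases, had the largest rise of all genes named by the brighter of its 2 probe sets. It read 6.06, 6.57 and 6.32 in E12.5 mutants, against 2.94, 3.25 and 3.20 in E13.5 controls and 4.25, 3.99 and 6.74 in E12.5 controls. All mutant arrays were above all E13.5 arrays, by 3.19 ± 0.41 (SE; limma adjusted p = 2.9e-05), and the mean of both probe sets gave 1.94, still called but under the 2.97 of Lncenc1. On the brighter probe set, E12.5 controls spread across most of the gap and their difference from the mutants did not pass (1.32, adjusted p = 0.23). Cdkn2d (p19), an inhibitor of CDK4 and CDK6, went the other way. It read 5.01, 4.79 and 4.48 in E12.5 mutants, against 5.79, 6.13 and 5.70 in E13.5 controls and 4.16, 3.84 and 4.14 in E12.5 controls, so that the mutant arrays lay between the stages. The difference from E13.5 was -1.11 ± 0.23 (adjusted p = 0.0036), and that from E12.5 controls did not pass (0.72, adjusted p = 0.26). Cdkn1c (p57) read 4.76, 5.02 and 5.13 in E12.5 mutants and 4.86, 4.96 and 4.60 in E13.5 controls, within 2-fold (0.16), and was 1.12 above E12.5 controls (adjusted p = 0.011). Of the 8 inhibitors tested, 1 was called higher and 1 lower (25%, beside 6.55% of all genes). Within 2-fold lay 6 (75%, beside 91.6% of all genes). The arrays of the groups did not overlap for 62.5% of the 8, beside 25% of all genes.

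Of 19 genes of mitotic division, 2 were called higher and 1 lower (15.8%, beside 6.55% of all genes). Of 19 of DNA replication, 1 was called higher and 1 lower (10.5%). Ccna2 (cyclin A2) read 7.47, 7.62 and 7.79 in E12.5 mutants and 6.96, 6.77 and 7.06 in E13.5 controls (0.69, limma adjusted p = 0.0024). Ccnb2 (cyclin B2) read 7.05, 7.25 and 7.12 in E12.5 mutants and 7.80, 7.59 and 7.74 in E13.5 controls (-0.57, adjusted p = 0.011). For both genes the mutants were close to E12.5 controls, with differences of -0.15 and 0.17 from them (adjusted p = 0.79 and 0.76). Pcna, the replication clamp, was 0.85 higher (adjusted p = 0.0011) and was not called with the mean of its probe sets (0.72, adjusted p = 0.14), and Mcm3 of the replicative helicase was lower (-0.65, adjusted p = 0.0051). Nusap1, of the spindle, was called higher (0.52, adjusted p = 0.040), and lost its call without any 1 of 4 arrays, at adjusted p values up to 0.20. Cks2, a subunit of cyclin-dependent kinases, read 9.69, 10.16 and 9.93 in E12.5 mutants, against 7.55, 7.20 and 7.76 in E13.5 controls and 9.34, 9.76 and 9.97 in E12.5 controls. Its difference of 2.43 from E13.5 controls (limma adjusted p = 5.8e-09) is that of the brightest of 3 probe sets, and the mean of the 3 gave 0.47 (adjusted p = 0.062).

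**Figure D4:**
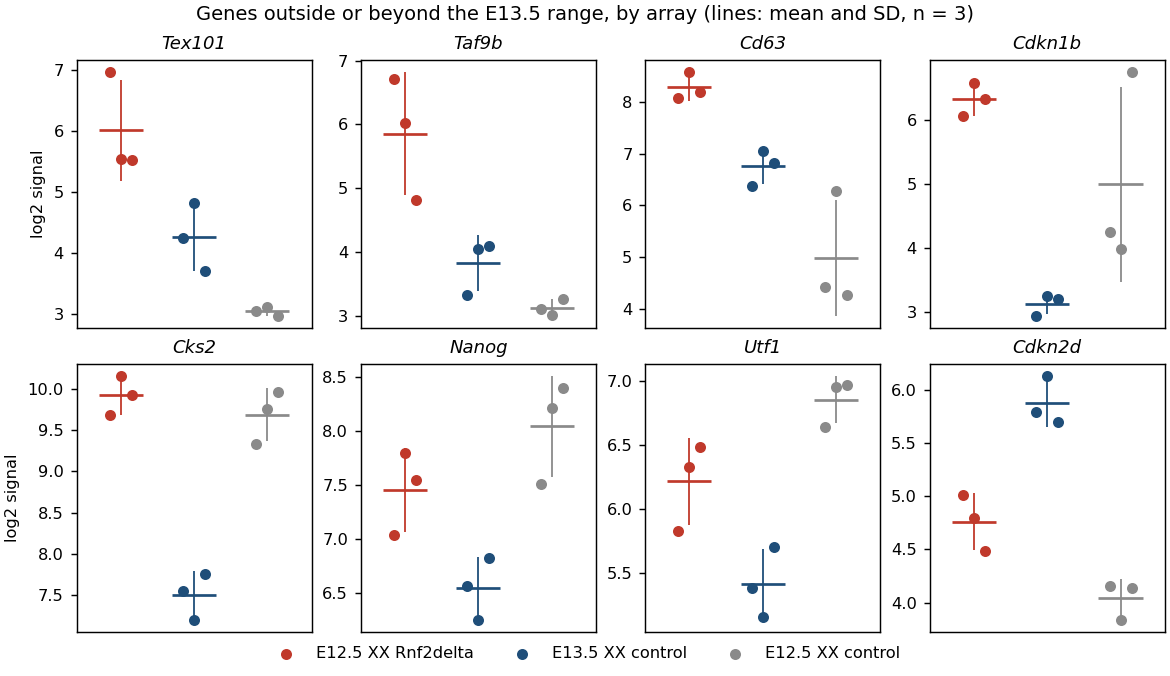
Log2 signal of 8 genes on each array, with E12.5 XX Rnf2delta left, E13.5 XX control next and E12.5 XX control right; horizontal lines are means and vertical lines SD (n = 3). Tex101, Taf9b and Cd63 exceed both control groups, Cks2, Nanog and Utf1 lie above E13.5, and Cdkn2d lies between the stages.

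Polycomb subunits, Rnf2 among them, were called in a larger share than all genes, but each of these calls was lost without some single array. Of 21 PRC1 genes tested, 2 were called higher and 1 lower, which was Rnf2 (14.3%, beside 6.55% of all genes), and 18 lay within 2-fold (85.7%, beside 91.6%). Bmi1, a PCGF subunit of canonical PRC1, read 6.69, 6.01 and 6.52 in E12.5 mutants and 5.08, 5.61 and 5.57 in E13.5 controls (0.99 ± 0.25, limma adjusted p = 0.016), a call lost without mutant replicate 1 (0.080) or 3 (0.072) or E13.5 control replicate 1 (0.072). Bcor, of a variant PRC1, was called higher by 0.62 (adjusted p = 0.042) and lost the call without any 1 of 5 arrays, at adjusted p values up to 0.16. Cbx8, a subunit that reads the H3K27 methyl mark, averaged 4.31 in both E12.5 mutants and E13.5 controls, and 3.08 in E12.5 controls. Of 12 PRC2 genes, Suz12 (0.79, adjusted p = 0.0041) and Eed (0.54, adjusted p = 0.049), which form the core of that complex, were called higher and 0 lower (16.7%). Suz12 lost its call without mutant replicate 2 (0.069), and Eed without any 1 of the 6 arrays, at adjusted p values up to 0.24. Between E12.5 mutants and E12.5 controls, 0 PRC2 genes were called. Suz12 read 5.38 to 5.80 in E12.5 mutants and 5.25 to 5.98 in E12.5 controls, and Eed 7.49 to 7.72 and 7.11 to 7.77. Bmi1 also overlapped its E12.5 control range (5.07 to 6.18), while Bcor, at 4.73 to 4.97 in E12.5 mutants, lay above its own (3.91 to 4.55).

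Developmental regulators listed as Polycomb targets were near the background of all genes. Of 41 listed, 38 were on the array and 31 passed the filter on low signals. Of the 31 tested, 0 were called in limma (2 higher and 2 lower at an unadjusted p under 0.05). Within 2-fold lay 29 (93.5%, about the 91.6% of all genes). Their levels were not all at the bottom of the array: Pax6 of the eye and brain read 3.54 to 4.08 in E12.5 mutants and 3.75 to 4.15 in E13.5 controls, and Cdx2 of the trophectoderm and gut 3.42 to 3.66 and 3.81 to 4.23. Of 34 Hox genes, 32 were on the array and 21 were tested. Of these, 2 were called higher (9.52%, beside 6.55% of all genes) and 20 lay within 2-fold (95.2%). Hoxd9 read 2.62, 2.62 and 3.58 in E12.5 mutants, against 2.31, 2.16 and 2.08 in E13.5 controls (0.75, adjusted p = 0.011), lost without mutant replicate 3 (0.43, adjusted p = 0.18). Hoxd8 was called higher by 0.48 (adjusted p = 0.043), a call lost without any 1 of the 6 arrays. Of 9 DNA methylation and demethylation genes 0 were called in limma (2 at an unadjusted p under 0.05), and all 9 lay within 2-fold. Of 18 imprinted genes tested, 1 was called higher (5.56%, beside 6.55% of all genes), the amino acid transporter Slc38a4. It read 6.50, 7.43 and 7.53 in E12.5 mutants and 5.40, 5.75 and 5.68 in E13.5 controls (1.54 ± 0.30, limma adjusted p = 0.0019).

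Xist, the noncoding RNA that silences one X, was higher in E12.5 mutants, at 3.48, 4.06 and 3.02, against 2.13, 1.90 and 2.04 in E13.5 controls, with 2.33, 2.72 and 2.88 in E12.5 controls. All mutant arrays lay above all arrays of both control groups, and the difference from E13.5 was 1.5 ± 0.22 (SE; limma adjusted p = 1.1e-04). Ddx3x, a helicase gene that escapes X inactivation, was higher than in E13.5 controls, at 7.83, 8.0 and 8.0 in E12.5 mutants and 7.14, 7.23 and 7.12 in E13.5 controls (0.78 ± 0.12, limma adjusted p = 1.6e-04). Unlike Xist, it overlapped the E12.5 controls, which read 7.63 to 7.91. Of 6 genes of X inactivation and escape tested, these 2 were called higher (33.3%, beside 6.55% of all genes) and the other 4 lay within 2-fold. Of 474 X-linked genes tested, 32 were called higher and 31 lower (13.3% in all), beside 355 higher and 575 lower (6.33%) of 14683 autosomal genes.

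The X as a whole did not separate the groups. The median of X-linked genes minus the median of autosomal genes was 0.112, 0.093 and -0.181 in mutant replicates 1, 2 and 3, and -0.051, 0.107 and 0.001 in E13.5 control replicates 1, 2 and 3. Mutant replicate 3 lay below the other 2 mutant arrays and below the 3 E12.5 control arrays, which read -0.129, -0.125 and -0.118. The group difference was -0.011 (exact two-sided permutation p = 0.9; 3 against 3 arrays cannot go below 0.1). With a stricter filter on low signals it was 0.269.

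**Figure D5:**
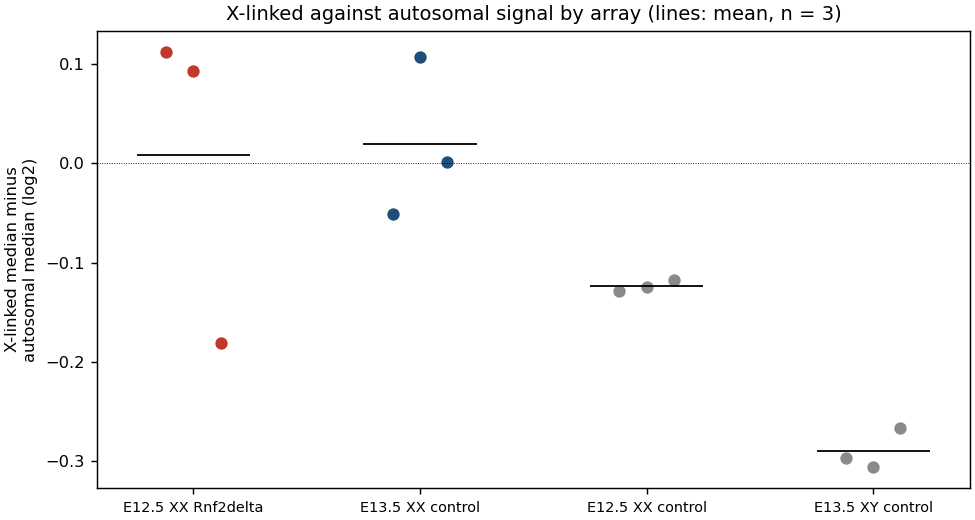
Median log2 signal of X-linked genes minus that of autosomal genes, per array (points) and as group mean (lines, n = 3). The E12.5 XX Rnf2delta arrays lie at 0.112, 0.093 and -0.181, the first just above the highest E13.5 XX control (0.107), the next within their range and the last below the E12.5 XX controls, and the E13.5 XY controls lie lowest.

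Most of the genes named for the size of their change were in none of the lists. Taf9b, an X-linked TFIID subunit, read 6.72, 6.03 and 4.82 in E12.5 mutants, against 3.32, 4.05 and 4.10 in E13.5 controls and 3.11, 3.01 and 3.27 in E12.5 controls (2.03 ± 0.33, limma adjusted p = 4.3e-04). Mageb4, an X-linked MAGE family gene, read 6.48, 6.15 and 5.14 in E12.5 mutants and 3.45, 3.79 and 3.89 in E13.5 controls (2.22, adjusted p = 2.0e-04). Taf9b therefore exceeded all arrays of both control stages.

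The metallothioneins, which bind zinc and copper, were also called higher, Mt1 by 1.81 (adjusted p = 0.022) and Mt2 by 1.80 (adjusted p = 0.0038). Mt1 lost its call without mutant replicate 2 (0.25) or 3 (0.097) or E13.5 control replicate 1 (0.068), and Mt2 without mutant replicate 2 (0.071). Others among the 12 largest rises were Rbm12b2 (2.29), Mfsd1 (1.74), AU015836 (1.67) and the long noncoding RNA Tug1 (1.61). Tug1 read 5.84, 6.07 and 5.96 in E12.5 mutants, against 4.50, 4.11 and 4.43 in E13.5 controls and 5.30, 5.27 and 5.48 in E12.5 controls. Glycolysis genes gave 1 call each way among 13 tested (15.4%, beside 6.55% of all genes). These were Hk1 (hexokinase) at 0.57 and Pkm (pyruvate kinase) at -0.65, and each was lost without 1 or more of the arrays. Of 12 p53 target and apoptosis genes, 1 was called (8.33%), Bcl2l11, which promotes cell death. It was higher (0.71, limma adjusted p = 0.015), a call lost without mutant replicate 2 (0.12) or 3 (0.11).

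Cd63, a tetraspanin of endosomes, was named from the set list and is not among the 12 largest rises. It read 8.07, 8.57 and 8.19 in E12.5 mutants, against 6.38, 7.05 and 6.82 in E13.5 controls and 4.42, 6.28 and 4.26 in E12.5 controls. It was 1.52 ± 0.32 above E13.5 (adjusted p = 0.0034, and 0.052 without mutant replicate 2) and 3.29 above E12.5 controls (adjusted p = 1.9e-05). All mutant arrays of Cd63 exceeded all arrays of both control stages.

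Of the 12 largest falls, Ndufs5, a subunit of respiratory complex I, had the largest. It read 7.69, 8.29 and 5.59 in E12.5 mutants, against 9.08, 9.02 and 9.06 in E13.5 controls and 7.26, 7.41 and 6.86 in E12.5 controls (-1.86 ± 0.41, limma adjusted p = 0.0059), and without mutant replicate 3 the difference was -1.06 (adjusted p = 0.12). C8g, a complement component, read 4.50, 4.31 and 2.92 in E12.5 mutants and 5.54, 6.19 and 5.23 in E13.5 controls (-1.74, adjusted p = 3.7e-04). Sfi1, a centrosome protein, read 4.36, 4.08 and 3.21 in E12.5 mutants and 5.23, 5.53 and 5.44 in E13.5 controls (-1.51, adjusted p = 8.0e-04). Phf8, an X-linked histone demethylase, read 4.01, 3.73 and 2.98 in E12.5 mutants, against 4.77, 5.11 and 4.57 in E13.5 controls and 2.90, 3.14 and 2.91 in E12.5 controls (-1.25, adjusted p = 1.8e-04).

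Igha (-1.79), Alg1 (-1.55), Cryzl2 (-1.45), Atp9a (-1.38), Ssna1 (-1.36), Spsb3 (-1.27) and Entpd2 (-1.25) made up the rest of the falls with Zglp1. Alg1, which adds the first mannose to the N-glycan precursor, read 5.41, 4.86 and 5.25 in E12.5 mutants, against 6.75, 6.73 and 6.69 in E13.5 controls. Atp9a, a flippase of endosomes, read 3.97, 4.46 and 4.66 in E12.5 mutants, against 5.83, 5.90 and 5.49 in E13.5 controls. For C8g, Sfi1, Atp9a and Ssna1 the differences of E12.5 mutants from E12.5 controls were 0.33, 0.06, 0.22 and -0.05, and none of these passed in limma (adjusted p of 0.77, 0.97, 0.78 and 0.98).

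Small RNA genes vary with how RNA is recovered. Their mean log2 signal over 62 genes was 4.92 to 5.0 in E12.5 mutants, 4.89 to 5.04 in E13.5 controls and 5.47 to 5.62 in E12.5 controls. This mean set the E12.5 controls apart and not the mutants from E13.5. Of the 62, 3 were called higher and 7 lower between E12.5 mutants and E13.5 controls (16.1%, beside 6.55% of all genes). Within 2-fold lay 35 (56.5%, beside 91.6% of all genes). The called ones named by size were Snora33 (1.75), Snord38a (1.0) and Rn7sk (0.54) upward and Snora21 (-1.66), Snord49b (-1.65) and Snora44 (-1.55) downward. Snora21 was not called with the mean of its probe sets (-0.71, limma adjusted p = 0.13), Rn7sk not after quantile normalization (0.21, adjusted p = 0.26), and Snord38a not without mutant replicate 2 (0.065) or 3 (0.079) or E13.5 control replicate 2 (0.054). The 2 mitochondrial genes that were tested, chosen for naming after their values were seen, were both called higher. ND3 read 11.55, 11.46 and 11.34 in E12.5 mutants, against 9.95, 9.86 and 9.99 in E13.5 controls and 11.27, 11.34 and 11.29 in E12.5 controls (1.52 ± 0.11, adjusted p = 5.1e-10), and COX2 differed by 1.12 (adjusted p = 1.1e-05). For both, the mutant arrays were at the level of their own day. The part of RNA recovery in the differences from E12.5 controls was not tested.

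Germ cell markers were high in both groups, and most markers of other gonadal cells were low. The mean log2 signal of 8 germ cell markers was 7.65 to 7.82 in E12.5 mutants and 7.54 to 7.62 in E13.5 controls, and 0 were called in limma (1 at an unadjusted p under 0.05). Ddx4, the germ cell helicase, read 8.48, 8.05 and 8.34 in E12.5 mutants and 7.96, 7.98 and 7.54 in E13.5 controls (0.46, adjusted p = 0.38). Mean signals of supporting cell markers were 2.36 to 2.61 in E12.5 mutants and 2.35 to 2.49 in E13.5 controls, those of interstitial and mesenchymal cells 2.25 to 2.40 and 2.27 to 2.35, and those of macrophages 2.14 to 2.54 and 2.12 to 2.25, in the same order of groups. Erythroid markers averaged 2.11 to 2.23 and 2.00 to 2.11, steroidogenic markers 1.90 to 2.11 and 1.88 to 2.06, and endothelial markers 2.67 to 2.71 and 2.69 to 2.90, again in E12.5 mutants and then E13.5 controls. The array medians lay between 2.52 and 2.66. Near or below them were the markers Foxl2 of supporting cells (2.38 to 2.63 and 2.05 to 2.58) and Cdh5 of endothelium (1.91 to 2.20 and 1.99 to 2.27). Of the other supporting cell markers, Amh, Dhh and Krt19 read below the medians in both groups. Wnt4 (3.22 to 3.69 and 3.34 to 3.60), Rspo1 (2.96 to 3.05 and 2.71 to 3.01) and Gata4 (2.75 to 3.32 and 2.81 to 3.24) read above them on every array of both groups. The endothelial marker Pecam1, which germ cells also express, was not low: it read 6.24 to 6.48 in E12.5 mutants and 6.58 to 6.88 in E13.5 controls. Of the macrophage markers Tyrobp read 3.06 to 4.12 in E12.5 mutants and 2.71 to 3.06 in E13.5 controls. Of the 32 markers of 6 other cell types tested, 0 were called in limma (4 at an unadjusted p under 0.05), and 14 genes of immediate early and dissociation stress gave 0 calls (0 at an unadjusted p under 0.05). In bulk samples of sorted cells, fewer cells of a type and less RNA per cell cannot be told apart.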

How the data were processed

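Per the labels' protocols, RNA of 500 sorted cells per sample was amplified and hybridised to Affymetrix arrays. The authors deposited log2 values for 34760 probe sets on 30 arrays, and the submitters' processing notes name R 2.15 and affy 1.36; the sources used here do not give the steps between scan and value. Array medians were 2.52 to 2.66, and precision is limited by 3 arrays a group.

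A platform table gave 21640 probe sets 1 symbol, 1321 several and 11799 none; 21553 symbols were updated through Entrez IDs and 87 kept. For the 954 genes with several probe sets, that of highest mean signal stood for the gene. A gene was kept where at least 3 arrays exceeded their own 40th percentile (15180 of 19937 genes). limma 3.58.1 (R 4.3.3) fitted 10 group means on all 30 arrays with variance weights per group (20 residual degrees of freedom), with Benjamini-Hochberg adjustment and a threshold of 0.05; the fit was tested on simulated data. Tables, counts and figures were made with Python 3.11.15, pandas 2.3.3, scipy 1.17.1 and matplotlib 3.10.9. Named genes were a set list, the 12 largest non-overlapping rises and falls past the threshold, up to 6 per gene list by call and p, and 3 small RNAs each way; exceptions are marked. The members and lists were chosen with earlier results of these data known. Replicate numbers were not treated as pairs, because deviations of same-numbered mutant and E13.5 arrays correlated at -0.134, -0.098 and -0.006. Alternatives changed the weights, arrays, normalization, filter, probe set rule and empirical Bayes step, and left out each array.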

Additional observations from a re-analysis of the deposited data

Results flagged for a closer look

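Probe sets that could not be named with a single gene symbol were kept out of every comparison above. Of 9784 such probe sets tested in the same way, 237 were called higher in E12.5 mutants than in E13.5 controls and 144 lower, 3.89% in all. They were set apart for a closer look because they carry a signal outside the genes reported, and what they measure was not examined.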

How the results depend on the processing

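The number of genes called between E12.5 mutants and E13.5 controls depended on the arrays in the fit and on the replicate block. Fitting the compared groups alone gave 555 calls (239 higher, 316 lower), of which 488 were among the 995. Adding the replicate block to that fit gave 127 (60 and 67), with 0 meiotic genes lower and 1 higher. The replicate numbers share only a label. Leaving out 1 array at a time gave 400 to 888 calls, 139 to 343 higher and 261 to 545 lower, with the fewest without mutant replicate 2; the 538 calls without mutant replicate 3 and the 657 without E13.5 control replicate 2 were also below the main count by over 1.5 times. The higher share was 49.4% of calls without mutant replicate 3, beside 39.1%. Meiotic genes called lower numbered 2 to 5 and called higher 1 to 5 over these fits, and 2 were called higher with the compared groups alone. The genes within 2-fold were 8620 with the filter at the 60th percentile, which tests 9927 genes, and the X-linked difference was then 0.269. With equal weights the control step gave 3309 calls and the same-day comparison 1502, against 134 for the same-day comparison after quantile normalization; the cause was not tested. Of the 65 named genes called, 24 kept their call under all 17 alternatives and 41 lost it under 1 or more; 24 of the 140 not called gained one. The sign changed under 1 or more alternatives for 0 of the 65 called genes and for 19 of the 140 not called. Differences of genes near the array medians are compressed, and the 2-fold bound says least there.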
